A study of Mus musculus with 16 samples.

Results

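The genes described here are 5 ubiquitin ligases of the Nedd4 type (Itch, Nedd4, Nedd4l, Wwp1 and Wwp2), 2 membrane adaptors that recruit and activate them (Ndfip1 and Ndfip2), and Fbxl17. They were chosen by name, and all 8 were found as 1 line each among 55468 lines with a gene symbol in the day 5 table and 55471 in the day 7 table. Itch and Fbxl17 are counted by the study among the putative targets of RUS, a long non-coding RNA of the mouse (symbol Gm20754), because they were annotated next to sites where RUS was found on chromatin. The other 6 genes were taken as the relatives and partners of Itch.

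RNA-seq was made from neural stem cells (NSC) of the cortices of C57BL/6 mouse embryos at E15-16. The cells were grown with FGF2 and serum and were switched to differentiation medium 5 days after seeding. They carried a lentivirus that expressed either a scrambled shRNA (here shCON) or an shRNA against RUS (shRUS), and were taken on day 5 or day 7 after seeding. Each of the 4 groups held 4 libraries, 16 in all. The knockdown rests on 1 shRNA sequence, and nothing in the labels says whether replicates came from separate cultures or animals, so that p-values cover only the spread between these libraries.

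Ubiquitin ligases of the HECT class take ubiquitin from an E2 enzyme onto a cysteine of their own and pass it on to a substrate. The Nedd4 branch of this class recognises its partners through WW domains, which bind the short motif PPxY (proline, proline, any residue, tyrosine). Ndfip1 and Ndfip2 are small proteins of endosomal and Golgi membranes that display such motifs to the cytoplasm. Fbxl17 works otherwise: as an F-box protein it is the interchangeable substrate receptor of an SCF ligase, built on Cul1, Skp1 and Rbx1, and it is known for acting on BTB proteins and on Sufu, a brake on Hedgehog signalling.

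The coding sequence around the active-site cysteine is shown for 4 ligases because it is the catalytic residue they share with all HECT ligases and because related genes could exchange reads in counting. Each stretch holds 45 bases of the longest coding transcript in GENCODE vM21 (GRCm38), written 5′ to 3′ on the strand of the gene, with the codon of the cysteine in capitals:
Itch: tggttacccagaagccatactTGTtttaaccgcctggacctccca
Wwp1: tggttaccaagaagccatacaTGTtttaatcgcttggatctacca
Wwp2: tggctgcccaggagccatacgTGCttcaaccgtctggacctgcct
Nedd4: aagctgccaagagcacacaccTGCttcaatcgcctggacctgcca
The stretch lies at chr2:155220258-155224388 in Itch (plus strand, exons 25 and 26, codon 832 in capitals), at chr4:19611792-19618307 in Wwp1 (minus strand, exons 24 and 25, codon 886), at chr8:107556762-107556908 in Wwp2 (plus strand, exons 23 and 24, codon 838) and at chr9:72746457-72747147 in Nedd4 (plus strand, exons 28 and 29, codon 854). In all of them it spans an intron. Itch and Wwp1 shared 39 of the 45 bases, Itch and Wwp2 36, and Itch and Nedd4 31. Over whole coding sequences the longest identical run was between 14 and 21 bases in the 10 pairs of ligases, and it was 23 bases between Ndfip1 and Ndfip2.

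Both PPxY motifs of Ndfip2 are shown because they are the sites at which an adaptor meets the ligases. Each stretch holds 54 bases of coding sequence with the 4 motif codons in capitals:
Ndfip2, first motif: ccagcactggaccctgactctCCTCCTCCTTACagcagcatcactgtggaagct
Ndfip2, second motif: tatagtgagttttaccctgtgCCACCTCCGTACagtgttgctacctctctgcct
The first lies at chr14:105287713-105287766 (plus strand, exon 2) and the second at chr14:105292243-105292296 (exon 3). A search of the coding sequences found 2 PPxY motifs in Ndfip1 and 2 in Ndfip2, and 0 in each of the ligases and in Fbxl17.

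Across the libraries, 25615 to 29126 genes had a TPM above 0. Expression is given as TPM, a unit per transcript length that sums to 1000000 in a library. It keeps no read number, so depth per library is unknown. RUS itself was barely detected on this scale. On day 5 its TPM was 0.24, 0.11, 0.18 and 0.16 in shCON and 0.05, 0, 0.12 and 0.32 in shRUS. On day 7 it was 0.7, 0.72, 0.26 and 0.54 in shCON and 0.54, 0.38, 0 and 0.04 in shRUS. The groups overlapped on both days, with adjusted p = 0.519 and 0.114 (limma), so these values do not check the knockdown in each library. The study itself reported an incomplete reduction of RUS, measured by RT-qPCR, for the knockdown cells of this experiment. On day 5, shRUS replicate 4, which held the highest value of RUS, also lay nearest to the controls on the first principal component of all genes (15.9, against 40.5 to 56.2 in the other shRUS libraries and -53.6 to -26.2 in shCON). Where leaving out this library changed a call of a member, both values are given. Calls on day 5 then rose over all genes too, to 3929 higher and 4593 lower of 22583 tested, against 3349 and 4034 of 22581.

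The labelled cell type was checked on marker genes. All 6 markers of neural stem cells and radial glia were found, and their TPM, divided by a library factor (scaled TPM), summed to 10580-12630 in shCON and 15470-18710 in shRUS on day 5 and to 6478-6888 and 7006-7706 on day 7. Most of that sum was Vim and Fabp7: of the 6 markers, 3 were higher and 2 lower in shRUS on day 5 and 2 were higher and 2 lower on day 7, with Nes at -0.87 and -1.19 (log2 fold change). Proliferation markers were lower in shRUS, 6 of 6 on each day, and their sum fell from 597-624 to 341-378 scaled TPM on day 5 and from 729-733 to 291-330 on day 7. Markers of microglia were lower for 2 of 6 on day 5 and 6 of 6 on day 7, when they summed to 194-209 in shCON and 82.9-106 in shRUS. Markers of the oligodendrocyte lineage were lower for 4 of 6 on day 5 and 6 of 6 on day 7. Of 5 astrocyte markers, 1 was higher and 1 lower on day 5 (sum 2338-2456 in shCON and 3107-3340 in shRUS) and 2 were higher and 1 lower on day 7 (1143-1170 and 1292-1490). Of 6 neuron markers, 1 was higher and 2 lower on day 5 and 2 were higher and 2 lower on day 7. Fibroblast and mural markers, of which 4 of 5 were tested, were higher for 1 on day 5 and 2 on day 7, when they summed to at most 16.7 in shCON and 36.6 in shRUS and the groups did not overlap. Endothelial markers, of which 2 of 4 were tested, were lower for 1 on each day (Kdr) and summed to at most 6.79 in any library. In bulk RNA, fewer cells of a type and less RNA per cell cannot be told apart, and the part of these shifts in the results below was not tested.

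The 8 genes spanned a wide range of levels. Nedd4 was the highest in all 4 groups, with a mean of 462 ± 43.1 TPM (SD, n = 4) in shCON on day 5, and Ndfip1 followed with 260 ± 12.2 TPM. Ndfip2 (43.3 ± 0.936 TPM) and Nedd4l (40.2 ± 3.27 TPM) came next, and their ranges overlapped in shCON on day 5 and in shRUS on day 7. Itch (29.4 ± 1.78 TPM), Wwp2 (22.8 ± 1.52) and Wwp1 (20.5 ± 2.31) stood closer together, and Fbxl17 was the lowest in every group and overlapped with no other member (12.2 ± 1.93 TPM in shCON on day 5). The order of Itch, Wwp2 and Wwp1 was not the same in each group, and neighbours overlapped for Wwp2 and Wwp1 in shCON on day 5, for Itch with both others in shRUS on day 5, for Itch and Wwp2 in shCON on day 7 and for Itch and Wwp1 in shRUS on day 7. Nedd4 alone made up 80.3 ± 0.405% of the summed TPM of the 5 ligases in shCON on day 5 and 83.1 ± 0.509% on day 7, and 79.7 ± 1.82% and 83.1 ± 0.567% in shRUS.

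**Figure D1:**
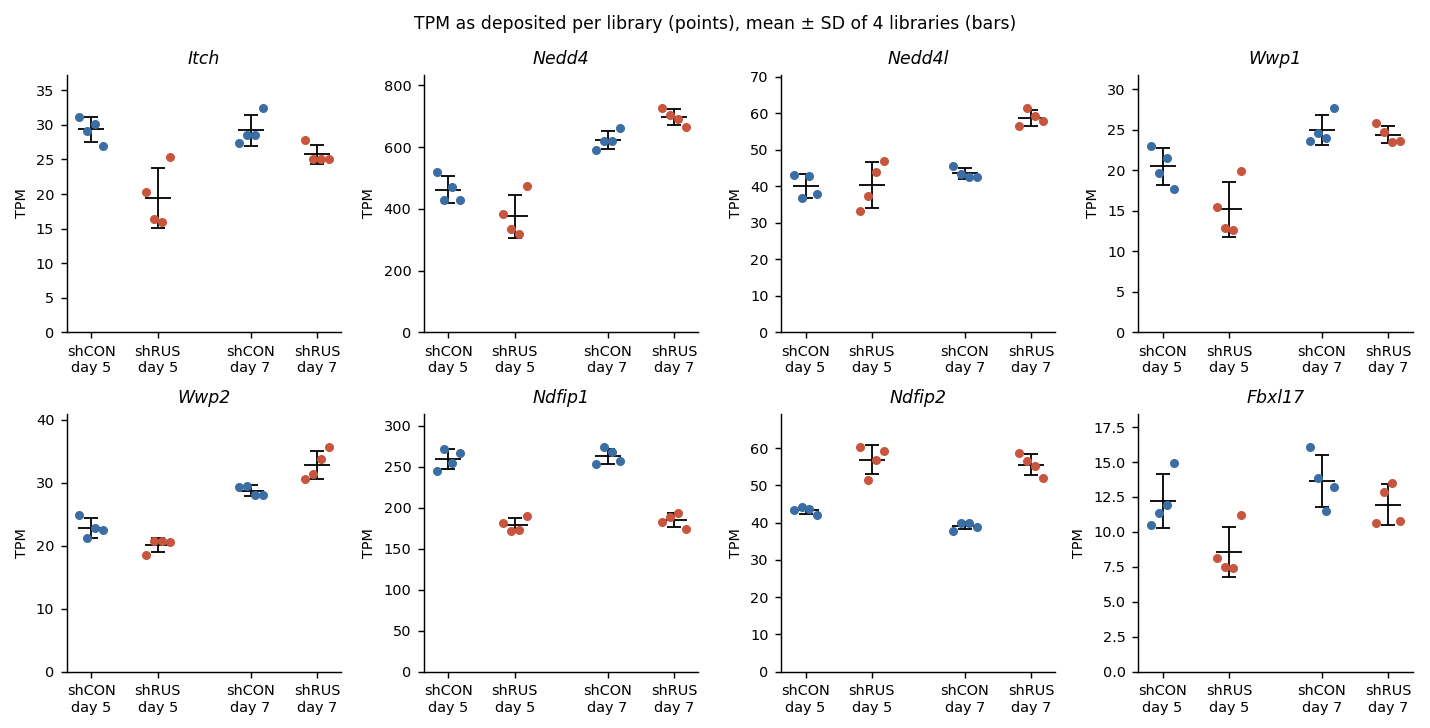
TPM of the 8 genes (vertical axes, each from 0) in every library by shRNA and day (blue points shCON, red points shRUS; black bars, mean ± SD of 4 libraries). Ndfip1 lies below and Ndfip2 above the controls in all shRUS libraries on both days. In Itch, Wwp1, Nedd4, Nedd4l, Ndfip1 and Fbxl17 the highest shRUS point on day 5 is replicate 4. For Nedd4l this point lies above all shCON points of that day.

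Knockdown on day 5 left 3 of the 8 genes past the threshold (limma on log2 of scaled TPM + 0.1, Benjamini-Hochberg adjusted p under 0.05, here "called"). Itch and Ndfip1 were lower and Ndfip2 was higher. Of the 22581 genes in the day 5 fit, 14.8% passed upwards and 17.9% downwards, so that 1 member higher and 2 lower are shares near the background. On day 7, 4 members were higher (Ndfip2, Nedd4l, Wwp2 and Nedd4) and 2 were lower (Ndfip1 and Itch), beside 23.4% of all genes called higher and 25.8% lower.

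Itch, a ligase best known for restraining T cell activation and for acting on Notch and JunB, had 31.2, 29.2, 30.1 and 27.0 TPM in the shCON libraries of day 5. In shRUS it had 20.3, 16.4, 15.9 and 25.3 TPM. All shRUS libraries lay below all shCON libraries, replicate 4 by the smallest margin. The log2 fold change was -0.46 (SE 0.119, adjusted p = 0.0164), or -27.2%, and it was -0.56 without shRUS replicate 4. On day 7 Itch had 27.4, 28.5, 28.5 and 32.4 TPM in shCON against 27.8, 25.1, 25.0 and 25.0 TPM in shRUS. Here the groups overlapped, since shRUS replicate 1 lay above shCON replicate 1. For day 7 the log2 fold change was -0.18 (SE 0.0636, adjusted p = 0.0381). It missed the threshold in 10 of the 18 other settings tried, among them the fits without any 1 of shCON replicates 2, 3 and 4 and shRUS replicates 2, 3 and 4, with log2 fold changes between -0.22 and -0.13 over the 8 fits that each leave out 1 library.

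Nedd4, the founding member of the family, had the highest TPM of the 5 ligases. Its values were 519, 429, 472 and 428 TPM in shCON on day 5 and 383, 333, 317 and 472 TPM in shRUS. As deposited, 3 shRUS libraries were below every control and replicate 4 was not. This gave a log2 fold change of -0.15 (adjusted p = 0.29, 95% confidence interval -0.375 to 0.0761), and its value depended on single libraries: without shRUS replicate 4 it was -0.23 and called (adjusted p = 0.0473), and without shRUS replicate 3 it was -0.08 (adjusted p = 0.598). With TPM as deposited it was -0.31 and with quantile normalization -0.33, neither called. On day 7 Nedd4 stood at 590, 620, 618 and 662 TPM in shCON and 726, 704, 691 and 665 TPM in shRUS. All shRUS values were above the controls as deposited, and after scaling the lowest shRUS library (659) fell below the highest shCON library (665). Nedd4 thus had a log2 fold change of 0.16 (SE 0.0443, adjusted p = 0.0136). It was 0.26 with quantile normalization, and was not called with 75th percentile scaling (0.10) or in 1 fit over the 16 libraries.

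Nedd4l, known for removing the epithelial sodium channel from the membrane, had 43.2, 36.8, 42.8 and 38.0 TPM in shCON on day 5 and 33.2, 37.3, 43.9 and 47.0 TPM in shRUS. These groups were interleaved (log2 fold change 0.15, adjusted p = 0.221), and with TPM as deposited the direction turned (-0.0031). Without shRUS replicate 1, whose value was the lowest, the log2 fold change was 0.23 and called (adjusted p = 0.0495). On day 7 the values were 45.7, 43.5, 42.5 and 42.5 TPM in shCON and 56.4, 61.4, 59.3 and 57.9 TPM in shRUS. Every shRUS library exceeded every control. The log2 fold change was 0.43 (SE 0.0422, adjusted p = 2.63e-05), a rise of 34.6% that was called in all 18 alternatives. Nedd4l overlaps 2 annotated antisense genes, and since the strand setting of the counting is not given in the sources used here, their reads cannot be told apart.

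Wwp1 is the close relative of Itch. On day 5 it had 23.0, 19.7, 21.6 and 17.7 TPM in shCON and 15.5, 12.9, 12.6 and 19.9 TPM in shRUS. Again 3 shRUS libraries were below the controls and replicate 4 lay among them. Its log2 fold change was -0.29 (SE 0.125, adjusted p = 0.11), and -0.39 and called without replicate 4. It was also called with TPM as deposited (-0.45) and in 1 fit over the 16 libraries. On day 7 Wwp1 was at 25.0 ± 1.85 TPM in shCON and 24.4 ± 1.1 TPM in shRUS, a log2 fold change of -0.03 with a 95% confidence interval of -0.172 to 0.108 (adjusted p = 0.708). Wwp1 overlaps the coding gene Gm12353 on the opposite strand.

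Wwp2, a ligase with roles in cartilage, ranged from 21.2 to 24.9 TPM in shCON and from 18.5 to 20.8 TPM in shRUS on day 5. After scaling these groups overlapped, and the log2 fold change was -0.02 (adjusted p = 0.815). On day 7 its values were 29.4, 29.5, 28.0 and 28.0 TPM in shCON and 30.6, 31.4, 33.7 and 35.6 TPM in shRUS. All shRUS libraries were above all controls. Wwp2 had a log2 fold change of 0.19 (SE 0.0516, adjusted p = 0.013), and it was not called with 75th percentile scaling (adjusted p = 0.0694).

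The adaptors showed the clearest separation, and in opposite directions. Ndfip1 is the adaptor through which Itch is known to be activated in lymphocytes. It had 244, 272, 255 and 266 TPM in shCON and 182, 172, 173 and 190 TPM in shRUS on day 5. On day 7 it had 253, 274, 268 and 257 TPM in shCON and 183, 189, 194 and 174 TPM in shRUS. No shRUS library reached the lowest control on either day. The log2 fold change was -0.37 on day 5 (SE 0.0643, adjusted p = 0.00208) and -0.51 on day 7 (SE 0.0416, adjusted p = 8.11e-06), a fall of 22.8% and 29.8%.

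Ndfip2 had 43.4, 44.1, 43.7 and 41.9 TPM in shCON and 60.2, 51.5, 56.8 and 59.3 TPM in shRUS on day 5. On day 7 it had 37.9, 39.8, 40.0 and 38.9 TPM in shCON and 58.6, 56.6, 55.1 and 51.9 TPM in shRUS. Again the groups were apart on both days, with shRUS above. The log2 fold change was 0.55 on day 5 (SE 0.0614, adjusted p = 0.000201) and 0.50 on day 7 (SE 0.0452, adjusted p = 1.53e-05), or 46.4% and 41.4%. Both adaptors kept these directions and calls in all 18 alternatives of each day.

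Fbxl17 had 10.5, 11.3, 11.95 and 15.0 TPM in shCON and 8.14, 7.46, 7.39 and 11.2 TPM in shRUS on day 5. In 3 shRUS libraries the value was below the lowest control, and in replicate 4 it was not. Fbxl17 had a log2 fold change of -0.36 (SE 0.145, adjusted p = 0.0895), with a 95% confidence interval of -0.685 to -0.0311 before adjustment. It was -0.46 and called without shRUS replicate 4, and was also called without shCON replicate 1, with TPM as deposited and with the replicate number as a block. On day 7 Fbxl17 had 16.0, 13.8, 11.5 and 13.2 TPM in shCON and 10.7, 12.9, 13.5 and 10.8 TPM in shRUS, and the groups overlapped (log2 fold change -0.19, adjusted p = 0.213). Leaving out 1 library moved this value between -0.27 (without shCON replicate 3) and -0.11 (without shCON replicate 1), with no call. Of the members it had the fewest reads behind it, as the authors' mean of normalized counts (668 on day 5 and 826 on day 7, against 3354 and 3211 for Itch) shows.

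Scaled values of 3 members were free of overlap between shRUS and shCON on day 5 (1 above, 2 below), as were 32.8% of all genes tested, and of 4 members on day 7 (3 above, 1 below), as were 47% of all genes.

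**Figure D2:**
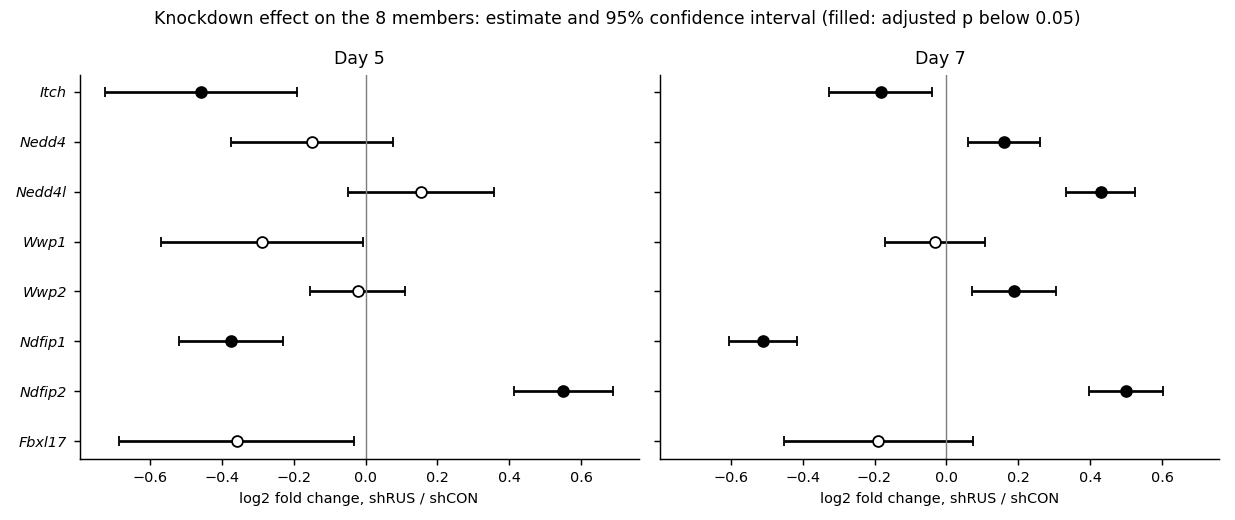
Log2 fold change of shRUS over shCON (horizontal axis) for the 8 genes in the day 5 (left panel) and day 7 (right panel) comparison, with 95% confidence intervals; filled points have an adjusted p under 0.05. Intervals are wider on day 5, and Ndfip1 (-0.37 and -0.51) and Ndfip2 (0.55 and 0.50) stand on opposite sides of 0 on both days.

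Ratios inside a library do not depend on how libraries are scaled to each other, and they are given as descriptions. Ndfip2 made up 15.1, 13.9, 14.6 and 13.6% of the summed TPM of Ndfip1 and Ndfip2 in shCON on day 5 and 24.9, 23.0, 24.7 and 23.8% in shRUS. On day 7 this share was 13.0 ± 0.195% in shCON and 23.1 ± 0.875% in shRUS. The highest control share (15.1%) was well below the lowest shRUS share (22.1%).

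Among the 4 ligases other than Nedd4, Itch made up 26.0 ± 0.827% of the summed TPM in shCON and 20.4 ± 2.92% in shRUS on day 5, and 23.1 ± 1.3% and 18.2 ± 1.06% on day 7. The groups did not overlap on either day, and the ranges on day 7 were 21.7-24.8% and 17.6-19.8%. Shares of 1 sum are tied to each other, so that a lower share of Itch raises those of the others. Nedd4l itself had a mean of 40.2 TPM in shCON and 40.4 TPM in shRUS on day 5, and of 43.5 and 58.7 TPM on day 7. Its share was 35.6 ± 0.932% in shCON and 42.4 ± 3.75% in shRUS on day 5. On day 7 it was 34.5 ± 1.51% and 41.4 ± 1.28%. In shCON of day 7 the largest share of the 4 was thus held by Nedd4l, followed by Itch and Wwp2, and in shRUS the share of Wwp2 (23.2 ± 1.55%) was above that of Itch.

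**Figure D3:**
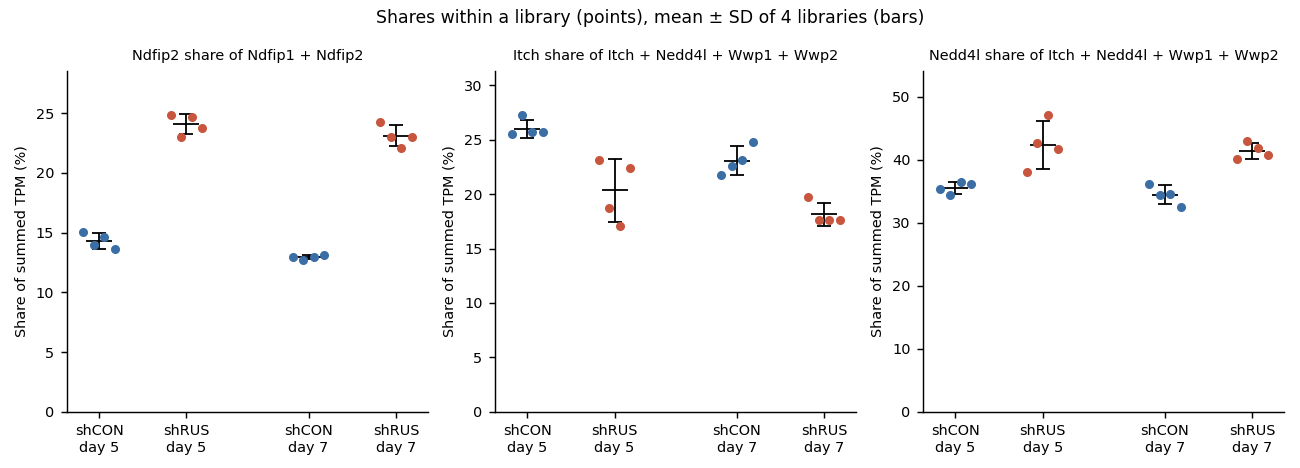
Share of Ndfip2 in Ndfip1 + Ndfip2 (left), of Itch (middle) and of Nedd4l (right) in the summed TPM of Itch, Nedd4l, Wwp1 and Wwp2, in percent per library (vertical axes from 0; blue shCON, red shRUS, bars mean ± SD of 4 libraries). The shares of Ndfip2 and Nedd4l are higher and that of Itch is lower in all shRUS libraries of each day.

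Between day 5 and day 7 the levels also moved in the controls. Nedd4 rose (log2 fold change 0.28, adjusted p = 0.0102), as did Wwp2 (0.18, adjusted p = 0.00853), and Ndfip2 fell (-0.30, adjusted p = 0.000256). These were 2 members higher and 1 lower, beside 26.9% and 21.6% of all 23789 genes tested. Ndfip1 had -0.13 with an adjusted p of 0.0501, and its direction turned with TPM as deposited (0.02) and quantile normalization (0.09). The size of these changes depended on the scaling, with Nedd4 at 0.58 under quantile normalization and Wwp2 at 0.33 and Ndfip2 at -0.14 with TPM as deposited. In shRUS 4 members rose, Nedd4 (0.58), Wwp1 (0.38), Wwp2 (0.38) and Nedd4l (0.23), and 2 fell, Ndfip2 (-0.36) and Ndfip1 (-0.28), beside 35.0% of all genes higher and 25.8% lower. The rises were larger under other scalings, up to 1.13 for Nedd4 with quantile normalization and 0.70 for Wwp1, 0.70 for Wwp2 and 0.55 for Nedd4l with TPM as deposited. The fall of Ndfip1 turned into a non-significant rise with TPM as deposited (0.04) or quantile normalization (0.10) and was -0.18 with 75th percentile scaling, and that of Ndfip2 was not called with TPM as deposited (-0.03). Itch had 0.10 (adjusted p = 0.406), and without shRUS replicate 4 of day 5 it had 0.21 and was called (adjusted p = 0.0492). With TPM as deposited Itch had 0.43 (adjusted p = 0.00371) and Fbxl17 0.49 (adjusted p = 0.00696, against 0.17 and 0.307 after scaling). The cells were also switched to differentiation medium 5 days after seeding, and a day is a table of its own. The time in culture, the medium and anything else that differed between the tables thus cannot be told apart.

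The knockdown effect itself was compared between the days in 1 limma fit over the 16 libraries. Of the 8 members, 0 passed the threshold, although 29.8% of all genes did in either direction, and 3 had an unadjusted p under 0.05. These were Wwp2 (difference of log2 fold changes 0.20, adjusted p = 0.0536), Nedd4l (0.26, adjusted p = 0.0636) and Nedd4 (0.30, adjusted p = 0.0689), each with the higher value on day 7. For Itch the difference was 0.26 (95% confidence interval -0.0464 to 0.57, adjusted p = 0.193), for Wwp1 0.24 (adjusted p = 0.245), for Ndfip1 -0.15 (adjusted p = 0.151) and for Ndfip2 -0.06 (adjusted p = 0.579). For Fbxl17 it was 0.16 with a wide 95% confidence interval of -0.263 to 0.575 (adjusted p = 0.597). Without shRUS replicate 4 of day 5, 4 members were called, Itch (0.37), Nedd4 (0.38), Nedd4l (0.31) and Wwp1 (0.35), but calls also rose over all genes, to 4392 higher and 3900 lower of 23868 tested, against 3626 and 3464 of 23789 with all libraries. With TPM as deposited Nedd4 (0.47), Nedd4l (0.43), Itch (0.43) and Wwp2 (0.37) were called, and with quantile normalization Nedd4 (0.55) and Nedd4l (0.31). Wwp2 was called in 8 of 25 other settings.

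The remaining ligases of the Nedd4 branch are Smurf1 and Smurf2, which act on the TGF-beta pathway, and the neuronal ligases Hecw1 and Hecw2. On day 5, 1 of these 4 rose (Smurf1, log2 fold change 0.50) and 1 fell (Hecw2, -0.95). On day 7, 2 rose (Smurf1, 1.19, and Smurf2, 0.28) and Hecw2 fell (-1.54, adjusted p = 0.00016). The counts of related genes below stand beside 14.8% of all genes called higher and 17.9% lower on day 5 and 23.4% and 25.8% on day 7, and their medians beside -0.0608 and -0.0293 over all genes. Among 18 other HECT ligases, 2 were higher and 6 lower on day 5 (median log2 fold change -0.177), and 7 were higher and 6 lower on day 7 (median 0.00293). The extremes were G2e3 (-0.91) and Hectd3 (0.57) on day 5 and Ube3c (-0.49) and Hectd3 (1.18) on day 7. Ube3a, the ligase of Angelman syndrome, was lower on both days (-0.78 and -0.26).

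Of 15 other adaptors and partners, 4 were higher and 1 lower on day 5 (median -0.0229), and 8 were higher and 4 lower on day 7 (median 0.162). Pmepa1, a PPxY protein of the TGF-beta pathway, had the lowest value on both days (-1.40 and -0.76). Wbp2, named for its binding to WW domains, was highest on day 5 (0.46), and the arrestin-like adaptor Arrdc3 on day 7 (0.88). Numb, a partner of Itch in the turnover of Notch, was higher on both days (0.29 and 0.42). Laptm5, a lysosomal protein of blood cells and microglia, was lower on day 7 (-0.56), as were all 6 microglia markers.

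A list drawn up for the enzymes upstream of HECT ligases held 1 E1 and 7 E2 genes, with medians of -0.136 on day 5 and -0.233 on day 7. How far each E2 of the list serves HECT ligases was not tested. On day 5, 2 were higher (Ube2l3, 0.27, and Ube2e1, 0.20) and 3 lower, the lowest being Ube2d1 (-0.33). On day 7, 0 were higher and 5 were lower, with Ube2l6 (-0.84) and Ube2d3 (-0.43) at the low end, and the 3 others had an adjusted p of 0.251 or more in limma (0.04 to 0.07).

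Of 18 genes whose proteins are known as substrates of Nedd4 ligases, 17 were tested. On day 5, 3 were higher and 4 lower (median 0.0229), and on day 7, 11 were higher and 2 lower (median 0.445, against -0.0293 over all genes). Klf5, a transcription factor turned over by Wwp1, had the highest value on both days (1.02 and 1.86), and Gli1, the transcriptional output of Hedgehog signalling and a substrate of Itch, the lowest (-1.02 and -0.82). Junb (0.89, adjusted p = 0.0769, and 1.51) and Jun (0.48 and 0.55) are the classical substrates of Itch. These are RNA levels, and the proteins were not measured in these files.

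The Notch receptors are proteins that Itch is known to act on, and Notch1 is counted both among the substrates and here. Of 10 Notch genes, 1 was higher and 6 lower on day 5 (median -0.444), and 3 were higher and 5 lower on day 7 (median -0.252). Notch1 was -0.58 on day 5 and 0.45 on day 7, and Notch2 was -0.45 and 1.03. For both, the difference between the days was itself called (1.01, adjusted p = 2.96e-05, and 1.46, adjusted p = 3.24e-06). The target gene Hes1 was lower on both days (-1.31 and -0.78), as was Hes5 (-0.67 and -0.83).

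For Fbxl17 the related genes are the F-box proteins with leucine-rich repeats, the SCF core and its known substrates. Of 20 other genes of the Fbxl family, 5 were higher and 2 lower on day 5 (median 0.00863), and 7 were higher and 3 lower on day 7 (median 0.0263). Skp2, the receptor for the cell cycle inhibitor p27, was lowest on both days (-0.66 and -0.81). Fbxl15 had the highest value on day 5 without being called (0.97, adjusted p = 0.075), and among the called genes Fbxl8 (0.49) was highest on day 5. Of the SCF core, Rbx1 (0.36) and Skp1a (0.29) were higher on day 5 and Skp1a (0.11) on day 7. The substrates Sufu, Bach1 and Keap1 were higher for 1 of 3 on day 5 (Keap1, 0.28) and 3 of 3 on day 7 (Bach1, 0.67, Sufu, 0.39, and Keap1, 0.27). Of 7 Shh genes, among which Gli1 and Sufu are also counted as substrates, 1 was higher and 3 lower on day 5 (median -0.232) and 3 were higher and 3 lower on day 7 (median 0.18), with Ptch1 at -0.57 and -0.47. The lowest value on day 5 was that of Gli1 and on day 7 that of Shh (-1.92), and the highest were those of Smo (0.40) and Gli2 (1.25).

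**Figure D4:**
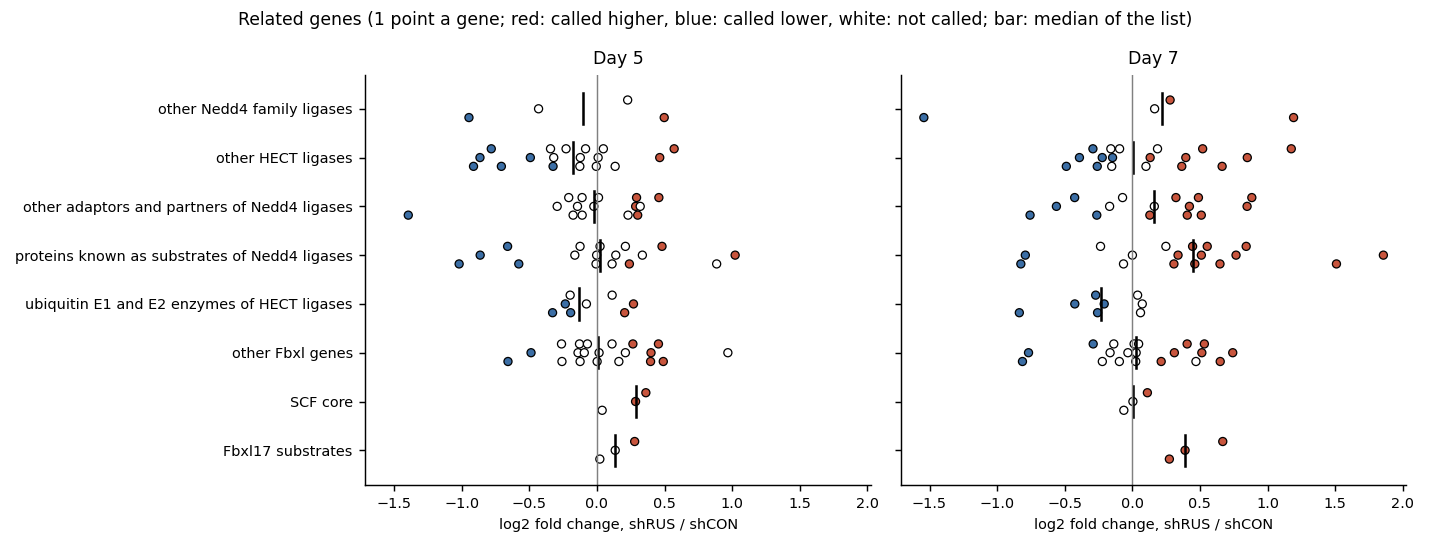
Log2 fold change of shRUS over shCON (horizontal axis) for related genes in 8 lists, with day 5 in the left and day 7 in the right panel, 1 point per gene (red called higher, blue called lower, white not called; bar, median of the list). Substrates of Nedd4 ligases shift from a median of 0.0229 on day 5 to 0.445 on day 7, and the E1 and E2 genes lie between -0.84 and 0.07 on day 7.

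Over the 16 libraries the genes most alike to each member were ranked by Pearson's r of log2 scaled TPM, as a description over libraries that share days and shRNAs. Ndfip1 was closest to Rpap3 (0.984), to Dut (0.982), which makes dUMP for DNA synthesis, and to the kinetochore gene Spc25 (0.981). A link between Ndfip1 and proliferation was not tested. Ndfip2 was closest to Cldnd1, Sybu and Arl6ip5 (0.98 to 0.981). Itch was closest to Mtmr6 (0.972), Hspa13 (0.961) and Cpsf2 (0.948), and Nedd4 to Zbtb33 (0.991), Edem3 and Osbpl8 (both 0.988). Wwp1 was closest to Slc25a36 (0.98), Gria2 (0.965) and Npat (0.964). Wwp2 was closest to Gigyf1 (0.962), Zfp598 and Tas1r1 (both 0.961), and Nedd4l to Parp4 (0.94), Gtpbp2 and Supt6 (both 0.931). Fbxl17 had no such close neighbour, with Ap3s2 at 0.831, Spdya at 0.8 and Apobr at 0.776. Between members, r was highest for Nedd4 with Wwp1 (0.862) and lowest for Nedd4l with Ndfip1 (-0.862). Itch went with Wwp1 (0.704), Ndfip1 (0.642) and Fbxl17 (0.583) and against Ndfip2 (-0.544) and Nedd4l (-0.489).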

How the data were processed

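RNA-seq of 16 libraries (4 groups of 4) was analysed. The authors enriched polyA RNA, aligned reads with STAR to mm10/GRCm38, quantified them with RSEM and deposited, per day, TPM per library and the results of DESeq2. From the latter, the authors' base mean (a mean normalized signal over the libraries of a day) is printed here, and their fold changes and p-values were not used. Strandedness is not given in the sources used here.

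Each library was scaled by a factor of 0.845 to 1.11, the median of its ratios to a geometric-mean library over genes at 1 TPM or more throughout. log2(scaled TPM + 0.1) was tested with limma 3.58.1 (R 4.3.3; lmFit, eBayes with trend, two-sided, Benjamini-Hochberg) where the mean reached 0.1 TPM, and fold changes are on that scale. Each day was fitted on its own 8 libraries, and time and the difference between days on all 16, leaving out 106 lines whose symbols differed between tables. Figures used Python 3.11.15 and matplotlib 3.10.9.

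Members and lists were chosen with earlier results of these data known. Named genes are the members, Gm20754, the extremes of each list, the genes the study connects to Itch or Fbxl17, and the 3 genes most alike to each member among genes whose mean reached 1 TPM. Ube3a, Numb, Wbp2, Laptm5, Jun, Junb, Ube2l3, Ube2e1, Ube2d3, Smurf2, Rbx1, Skp1a, Bach1, Keap1 and Fbxl8 were named from the lists after their values were seen. Some genes of the lists are counted but not reported by name here. Alternatives were other pseudocounts, filters and scalings, no trend, a replicate block, 1 fit over all libraries, and leaving out each library.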

Additional observations from a re-analysis of the deposited data

Results flagged for a closer look

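A library was singled out where its distance to the nearest of the 4 libraries of its group exceeded Dixon's 95% critical share of the group's range. This was tested for 56 sets of values and met 4 times; chance flags about 1 in 20 groups. On day 7, shCON replicate 4 stood above the other controls for Itch (32.6 against 27.6 to 28.3 scaled TPM), for Wwp1 (27.8 against 23.8 to 24.4) and for the share of Itch in the 5 ligases (4.09% against 3.82 to 3.85%). In shRUS of day 7, replicate 1 stood above the others for Itch (27.9 against 24.8 to 25.1 scaled TPM).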

How the results depend on the processing

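Of 888 values of members under alternatives, 819 kept their direction and their side of the threshold, 14 lost a call, 36 gained one and 19 changed direction. Depth is unknown, and small changes of Fbxl17 were the least precise. The replicate numbers did not pair libraries (r of deviations between libraries with the same number -0.226 to 0.11, and 3 of 16 were best matches), and with the replicate number as a block 3 members were lower on day 5, where Fbxl17 was called while calls over all genes fell to 2231 higher and 2735 lower, and 1 on day 7, where Itch was not called. The cause of the changes below was not tested.

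On day 5, 4 members were lower with TPM as deposited, which moves the median of all genes from -0.0608 to -0.205 (1768 genes higher and 6037 lower, against 3349 and 4034), and 75th percentile scaling gave 2418 and 4859. Leaving out a library gave 2 to 5 lower and 1 to 2 higher, with 5 without shRUS replicate 4 (3929 genes higher and 4593 lower, against 2629 to 2993 and 3107 to 3485 in the other such fits). On day 7, 1 was lower with no filter on low values, eBayes without trend or 1 fit over the 16 libraries, 1 to 2 without a library, and 2 were higher with 75th percentile scaling. Day 7 against day 5 in shCON gave 2 lower with a pseudocount of 1 or a filter at 1 TPM, and 1 to 2 without a library, where shCON replicate 1 or shRUS replicate 1 of day 5 or shRUS replicate 4 of day 7 was decisive for Ndfip1. In shRUS it gave 0 lower with TPM as deposited, where Fbxl17 and Itch were called higher, and 1 with quantile normalization. TPM as deposited moved the medians of time from 0.0673 to 0.205 (shCON) and from 0.131 to 0.415 (shRUS), with 71.4% and 76.9% of called genes higher instead of 55.5% and 57.5%. For the difference between the days, the count of members called higher was 1 with a pseudocount of 1 or 75th percentile scaling, 2 with a filter at 1 TPM (3504 genes higher and 3422 lower of only 15899 tested, against 3626 and 3464 of 23789) or quantile normalization, 4 with TPM as deposited (73.5% of called genes higher, against 51.1%), and 0 to 4 without a library, where Wwp2 was called without shCON replicate 2, shRUS replicate 2 or shRUS replicate 3 of day 5 or shRUS replicate 1 of day 7, and Nedd4l without shRUS replicate 3.

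Direction changed on day 5 for Nedd4l with TPM as deposited (-0.0031) and for Wwp2 with quantile normalization (0.00043) and within its range without a library (-0.0455 to 0.00834), and on day 7 for Wwp1 within that range (-0.0612 to 0.0201). For time in shCON it changed for Nedd4l with TPM as deposited (0.12) and 75th percentile scaling (0.0413), for Ndfip1 with TPM as deposited (0.0193) and quantile normalization (0.0913), and for Fbxl17 with quantile normalization (-0.06) and without a library (-0.0749 to 0.122). For time in shRUS it changed for Ndfip1 with TPM as deposited (0.0433) and quantile normalization (0.104), and for Fbxl17 with quantile normalization (-0.0035). For the difference between the days it changed for Ndfip1 (0.0241 and 0.0127) and Ndfip2 (0.11 and 0.0275) with TPM as deposited and quantile normalization.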
